A study of Mus musculus with 4 samples.

Results

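Reads of the miRNA family miR-297, miR-466, miR-467 and miR-669, most of whose genes lie in 1 intron of the gene Sfmbt2, were followed in mouse fibroblasts with and without thapsigargin. Members were all names in the deposited mature and star read tables that start with one of these 4 numbers. The rule itself used no measured level, but it was set with earlier results of these data known. This gave 39 of the 600 arms that had reads assigned to 1 name, with 1136 reads in all. A further 23 of 140 groups of names held 514 reads that fit more than once, and these were kept apart. Most of these groups were of near-identical members. Those that also list names outside the family, or a single name, had 1 read each.

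The cells were NIH-3T3, an established mouse embryonic fibroblast line, grown to confluency. The 2 control libraries came from untreated cells, and the 2 thapsigargin libraries from cells kept in 500 nM of the drug for 24 hours. No other treatment or genotype is named in the labels. Thapsigargin inhibits SERCA, the calcium pump of the endoplasmic reticulum (ER), so the calcium store of the ER drains and ER stress follows. The labels do not say whether replicates were separate cultures, so p-values measure only the spread between these libraries, which may be technical.

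Sfmbt2 encodes a polycomb-group protein and is an imprinted gene, expressed from the paternal copy in extraembryonic tissue, where it is needed for trophoblast development. The rodent cluster in its intron consists of tandem copies of a few hairpins, each of which can be cut into a 5p and a 3p mature miRNA of about the same length. A mature miRNA finds its target mRNAs mainly through its seed, bases 2 to 8, and miR-669a is known to repress MyoD in mouse cardiac progenitors.

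The sequences of the members that the results turn on are shown first, because copies of this family differ by so few bases that the sequence decides under which name a read is counted. Each is the commonest read of that name in control replicate 1, or one of those tied for it in miR-467h (2 reads) and miR-466i-3p (1 read), with bases 2 to 8 in capitals. The first 9 are reads of the 5p type, rich in G and T.
miR-467a: tAAGTGCCtgcatgtatatgcg
miR-467c: tAAGTGCGtgcatgtatatgtg
miR-467d: tAAGTGCGcgcatgtatatgcg
miR-467e: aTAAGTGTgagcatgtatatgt
miR-467h: aTAAGTGCgtgcatgtatatgt
miR-669c: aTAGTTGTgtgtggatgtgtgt
miR-669b: aGTTTTGTgtgcatgtgcatgtgt
miR-669l: aGTTGTGTgtgcatgtatatgt
miR-669a-5p or miR-669p: aGTTGTGTgtgcatgttcatgtct
The next 5 are rich in A and C.
miR-467f: aTATACATacacacacctacac
miR-466g: aTACAGACacatgcacacact
miR-466i-3p: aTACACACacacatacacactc
miR-466a-3p, miR-466b-3p, miR-466c-3p, miR-466e-3p or miR-466p-3p: aTACATACacgcacacataagac
miR-669a-3p or miR-669o-3p: aCATAACAtacacacacacgta
Among these reads, miR-467c and miR-467d shared a seed, and miR-669l shared its seed with miR-669a-5p. The read of miR-467h begins 1 base before the miR-467c read and ends 1 base before its end, and is the same in between.

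RefSeq (GRCm38.p6) mature sequences were at hand for 8 names of the family. The 3 that bear on named reads follow, with the seed in capitals.
miR-467f, RefSeq: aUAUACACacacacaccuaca
miR-467h, RefSeq: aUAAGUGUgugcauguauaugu
miR-466i-3p, RefSeq: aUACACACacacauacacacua

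Control replicate 1 held 3856537 arm reads of 1 name and control replicate 2 held 3633245, while thapsigargin replicate 1 held 5570614 and thapsigargin replicate 2 held 2685920. Fibroblast marker miRNAs (14 arms with reads) made up 50.6% to 65.6% of them in each library, and miR-10b, the most abundant arm, is among these markers. The markers of embryonic stem cells, where this cluster is best known, summed to at most 7 reads in any library. Neural markers held 828 to 4113 reads, blood markers 183 to 615 and epithelial markers at most 16. One library stood apart in where its reads begin. In control replicate 1, 89.0% of the reads that began at a RefSeq mature start or 1 base later began at the start itself, against 0.673% in control replicate 2, 1.04% in thapsigargin replicate 1 and 0.614% in thapsigargin replicate 2. Family reads showed the same step: 49.8% of them were 22 nt long in control replicate 1, while 21 nt was the commonest length in the others, at 45.1%, 52.8% and 41.0%. With all reads of control replicate 1 shortened by their first base, no value of a tested member changed direction.

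**Figure D1:**
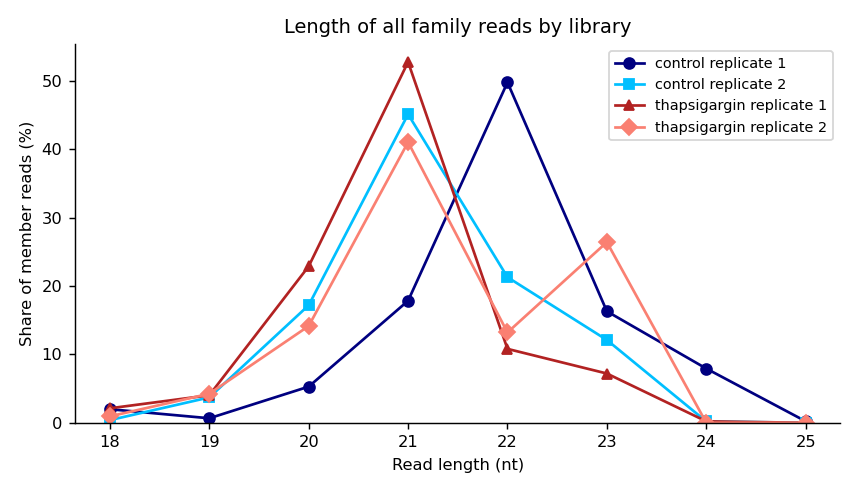
The share of family reads, in percent of each library's family reads, is plotted against read length in nucleotides, 1 line per library. The line of control replicate 1 peaks at 22 nt and the other 3 at 21 nt, and thapsigargin replicate 2 has a second peak at 23 nt.

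The cluster was expressed at a low level. Reads of 1 name summed to 84.3 and 94.4 CPM (counts scaled to a library total of 1000000 arm reads) in the control libraries and to 62.1 and 45.4 CPM with thapsigargin, which is 89.3 ± 7.17 CPM against 53.8 ± 11.8 CPM (SD, n = 2). Both thapsigargin libraries lay below both controls on this scale, as they did for 25.1% of all tested arms, counted singly and not as sums. The log2 ratio of the means was -0.73. This is a level per total arm reads; under that scaling the median arm of the whole data set also stood at -0.36, against 0.0019 after TMM scaling, which balances the libraries on their typical arm. After TMM scaling the family summed to 60.2 and 105 CPM in controls and to 56.0 and 63.4 CPM with thapsigargin. The groups then overlapped, with control replicate 1 between the thapsigargin libraries. In bulk RNA, fewer expressing cells and less RNA per cell cannot be told apart.

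By number, the miR-467 names carried most of these reads. They summed to 56.8 and 57.2 CPM in controls and to 45.8 and 29.8 CPM with thapsigargin. The miR-669 names followed, with 18.2 and 15.1 CPM against 9.51 and 9.31 CPM. The miR-466 names stood at 7.78 and 17.9 CPM against 5.21 and 5.96 CPM. The miR-297 names were the lowest, with 31 reads in all 4 libraries together. In each of the first 3 groups both thapsigargin libraries were below both controls on this scale. The same held for 25.1% of all tested arms, counted singly and not as sums. This scale leaves the shift of the median arm in. After TMM scaling the groups overlapped in all 3, for miR-467 at 40.6 and 63.6 CPM in controls against 41.3 and 41.6 CPM with thapsigargin.

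**Figure D2:**
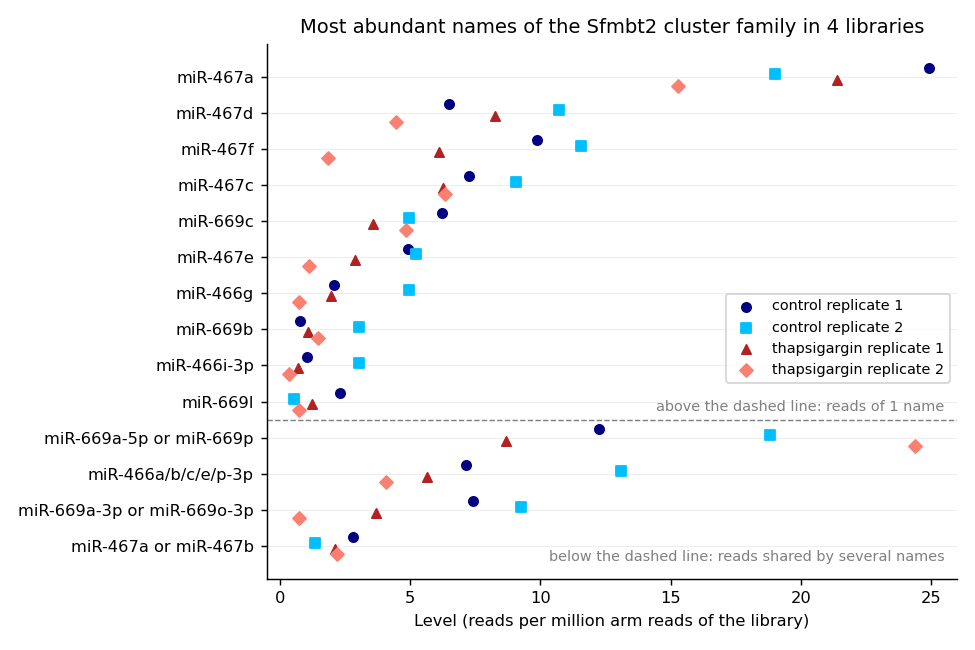
The level of the 10 members with the most reads of 1 name and of the 4 largest groups of shared reads is plotted in CPM of arm reads, with 1 point per library. miR-467a and the reads shared by miR-669a-5p and miR-669p reach the highest levels, and the 2 groups of libraries overlap for both.

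The most abundant member was miR-467a, a 5p miRNA for which the mouse annotation (GENCODE M21) has 10 hairpin copies inside Sfmbt2. It had 96 and 69 reads in controls and 119 and 41 with thapsigargin, or 24.9, 18.99, 21.4 and 15.3 CPM. The groups overlapped. miR-467d, with 1 hairpin, had 25, 39, 46 and 12 reads. Such sets of 4 values give control replicate 1, control replicate 2, thapsigargin replicate 1 and thapsigargin replicate 2, in this order. miR-467c, also with 1 hairpin, had 28, 33, 35 and 17 reads. Both sat far under miR-467a, and both had their most reads in thapsigargin replicate 1 and their fewest in thapsigargin replicate 2, the deepest and the shallowest library.

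miR-467f had 38, 42, 34 and 5 reads, and miR-467e, a 5p miRNA of 1 hairpin, had 19, 19, 16 and 3 reads. In CPM, miR-467f was at 9.85 and 11.6 in controls and at 6.10 and 1.86 with thapsigargin. The corresponding CPM of miR-467e were 4.93 and 5.23 against 2.87 and 1.12. For each of these members thapsigargin replicate 2 was the lowest library by a wide step. Their groups did not overlap in CPM, as was true of 25.1% of all tested arms in the lower direction. miR-669c, a 5p miRNA of 1 hairpin, had 24, 18, 20 and 13 reads. In CPM the groups did not overlap for miR-669c (6.22, 4.95, 3.59 and 4.84) or miR-467c (7.26, 9.08, 6.28 and 6.33) either. The TMM-scaled levels of miR-669c and miR-467c overlapped.

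The remaining members among the 10 with the most reads were too low for the test. miR-466g had 8, 18, 11 and 2 reads, and miR-466i-3p had 4, 11, 4 and 1. miR-669b had 3, 11, 6 and 4 reads, and miR-669l had 9, 2, 7 and 2. Between the groups these counts gave thapsigargin to control ratios of 0.454 for miR-466g (exact 95% counting interval 0.214 to 0.915), 0.302 for miR-466i-3p (0.0860 to 0.875), 0.648 for miR-669b (0.257 to 1.57) and 0.742 for miR-669l (0.272 to 1.97). The intervals cover counting error against the library totals only, and not the spread between libraries, which for miR-466g and miR-466i-3p ran from 2 or 1 reads to 18 or 11. The other 29 members had at most 19 reads each over the 4 libraries.

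Reads shared by several names added 2 of the largest signals of the family. Those that fit both miR-669a-5p and miR-669p numbered 48, 69, 49 and 66, or 12.2 and 18.8 CPM in controls and 8.67 and 24.4 CPM with thapsigargin, here relative to arm reads of all kinds. Thapsigargin replicate 2, the shallowest library, was the highest, and thapsigargin replicate 1 the lowest. Reads of miR-466a-3p and the 4 names that share them numbered 28, 48, 32 and 11, or 7.14 and 13.1 against 5.66 and 4.06 CPM. Those of miR-669a-3p or miR-669o-3p numbered 29, 34, 21 and 2, or 7.40 and 9.27 against 3.71 and 0.739 CPM. On this scale the latter 2 groups were thus lowest in thapsigargin replicate 2, where the 5p partner of miR-669a was highest. Reads of miR-467a or miR-467b, shorter forms of the same 5p miRNA, numbered 11, 5, 12 and 6. The next 6 groups held 3 to 6 reads each, and 1 of them, reads shared by miR-466a-3p and miR-466e-3p, had 5 reads in control replicate 1 and 0 in every other library.

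The names do not all point to the intron of Sfmbt2. GENCODE M21, a GRCm38 annotation used here only for which hairpin lies in which gene, holds 81 hairpins of the family. Of these, 71 lie in a single intron of Sfmbt2 (intron 10 of a transcript with 23 exons) and 10 elsewhere. Within the intron a miR-467 hairpin was followed by a miR-466 hairpin and then by miR-669a or miR-669p in 11 consecutive runs. Of the 39 member names, 30 belong to hairpins inside Sfmbt2 and carried 953 reads. Another 3 names belong to hairpins both inside and outside, with 24 reads. The other 6 names, with 159 reads, belong to hairpins on other chromosomes: miR-467f on chromosome 11, miR-467h on 9, miR-467g on 5, miR-466k on 3, and miR-466i-3p and miR-466i-5p on 13.

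Each of the 1650 member reads, shared reads included, was therefore compared letter by letter with the hairpins. Of these reads, 1377 (83.5%) were identical to a stretch of hairpins inside Sfmbt2 and of no other family hairpin. Another 40 fit hairpins both inside and outside, 4 fit only hairpins outside, and 229 (13.9%) fit none exactly. The share that fit only the Sfmbt2 hairpins was 84.1%, 79.7%, 85.8% and 85.8% in the 4 libraries. Of the 159 reads whose names belong to other chromosomes, 8 fit the hairpin they are named for and 117 fit Sfmbt2 hairpins but not their own.

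miR-467f made up most of that difference. None of its 119 reads was found in its own hairpin, while 98 were found in Sfmbt2 hairpins of miR-467a, miR-467d or miR-467e, on their 3p arm. All 119 reads carried the difference C8T from the RefSeq miR-467f, counted from 1 at the 5′ end of the RefSeq sequence, so that the last base of the seed differs. The read printed above for miR-467f is thus a 3p sequence of the miR-467 hairpins inside Sfmbt2 in this annotation. miR-467g showed the same on a small scale, with 0 of 3 reads in its own hairpin and 3 in Sfmbt2 hairpins.

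For miR-467h, 0 of 8 reads fit its own hairpin, 5 fit the miR-467c hairpin inside Sfmbt2, and all 8 carried T8C against the RefSeq sequence. All 8 were in control replicate 1, with 0 reads in the other 3 libraries, control replicate 2 included. A form of miR-467h (2 reads) is, less its first base, named miR-467c in control replicate 2 (1 read) and thapsigargin replicate 1 (3 reads). With the thapsigargin group set to a floor of 3 counts, it was at least 2.94-fold lower than the control group. This difference rests on 1 control library alone, the one whose reads begin 1 base earlier, and is not a measure of the drug. miR-466i-3p had 2 of 20 reads in its own hairpin and 11 that fit Sfmbt2 hairpins but not its own, and 18 of the 20 carried A22C. miR-669f-3p, named after its values were seen, had 12, 5, 2 and 0 reads, of which 7 fit its own hairpin and 10 fit other hairpins inside Sfmbt2. miR-466g was another case, since 1 of its 39 reads was found whole in its hairpin, although all 39 fit it over at least their first 19 bases.

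Of the 229 reads that fit no hairpin exactly, 190 were 1 base away from an Sfmbt2 hairpin. In 137 of these the base lay among the last 3 of the read, where an A in the hairpin read as T was the commonest change (52 reads). Among the 53 reads with a base further inside, A in the hairpin read as G was the commonest (20 reads). Of the reads with an internal A read as G, those named as the star arms of miR-467c, miR-467d or miR-467a held most. One of the 2 seen most often is shown, with the differing base in capitals.
miR-467d*: tatacatGcacacacctacac
It carries A8G, counted from the first base of the read. None of the 10 reads of miR-467d* and neither of the 2 of miR-467c* was identical to an annotated hairpin. Reads with this G numbered 12 in all, with 2, 6, 2 and 2 in the 4 libraries, so they were present in each.

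Counted by exact match, 66 of the 71 hairpins inside Sfmbt2 had at least 1 read that fit them, and 5 had none: those of miR-669k, miR-669j, miR-466l, miR-669i and miR-669h. This count of 1450 exact reads includes reads from the deposited hairpin table, where control replicate 1 had 24 family reads and the other libraries 6, 9 and 1. Of the exact reads, 33.4% fit a single Sfmbt2 hairpin, so most could not be assigned to 1 copy. The repeated miR-467a, miR-466 and miR-669a units, including the 3p arms of the single-copy miR-467 hairpins, accounted for 59.0% of them. The largest sets were 5p reads of miR-467a and miR-467b with 343 reads, 5p reads of miR-669a and miR-669p with 210, and 5p reads of the single miR-467d hairpin with 142. Of these 142 reads, 28 came from the hairpin table (20, 0, 8 and 0). They also enter the exact-match level of miR-467d below. On the 3p side the miR-466a-type arm had 118 reads, the miR-467 arms 101, and the miR-669a-type arm 84.

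**Figure D3:**
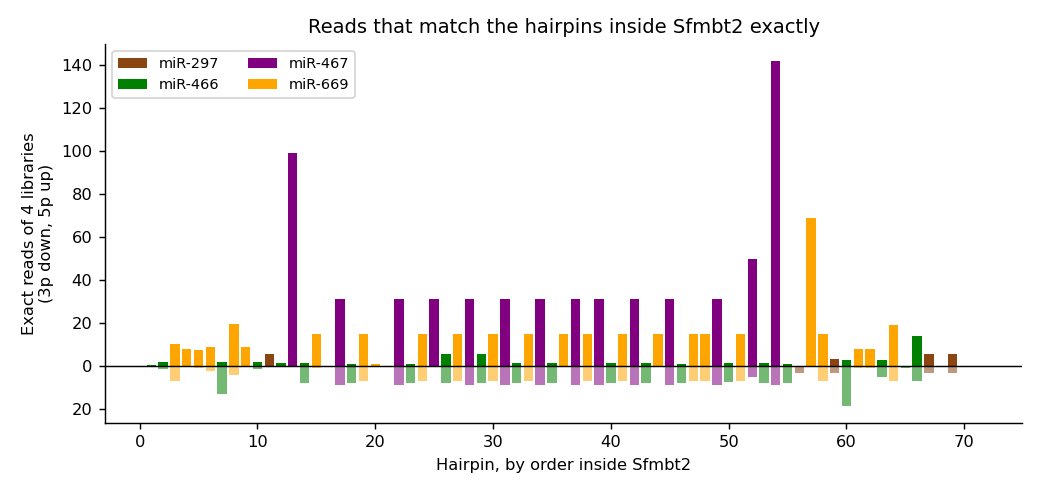
Exact reads summed over the 4 libraries are plotted for the 71 hairpins in their order inside Sfmbt2, 5p reads upward and 3p reads downward, coloured by family; a read that fits several hairpins is divided equally among them. The single-copy hairpins of miR-467d and miR-467c hold 142 and 99 reads of the 5p arm, while each miR-467a copy receives an equal share of 343. Of the 142 reads, 28 are from the hairpin table.

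The comparison of thapsigargin with control asked which miRNAs differ after the drug. No member passed the test. The quasi-likelihood test of edgeR, adjusted by the Benjamini-Hochberg method, was run on 307 arms and called 0 of them (0%), the 6 members that passed its filter on low counts included. Its unadjusted p was under 0.05 for 5 arms that were lower (1.63%) and 6 that were higher (1.95%), and for none of the members. Neither DESeq2, with 13 arms at an unadjusted p under 0.05, nor limma-voom, with 11, called any arm. Of the 6 tested members, 5 had a log2 fold change below 0, against 49.8% of all tested arms, and their median was -0.17 against 0.0019. That count moved with single libraries: it was 2 of 6 without control replicate 2 and 9 of 9 without control replicate 1. It was 6 of 10 without thapsigargin replicate 1 and 9 of 10 without thapsigargin replicate 2. The number of members that passed the filter differed between these runs.

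The 2 members with the lowest values were miR-467f and miR-467e. miR-467f stood at 9.94 ± 4.10 TMM-scaled CPM in controls and 4.05 ± 2.06 with thapsigargin (SD, n = 2). Its log2 fold change was -1.21 (SE 0.69, edgeR adjusted p = 0.880). It was -1.94 without thapsigargin replicate 1 and -0.75 without control replicate 2, the lowest and highest values with 1 library left out. miR-467e stood at 4.66 ± 1.62 against 2.08 ± 0.73 TMM-scaled CPM, a log2 fold change of -1.07 (SE 0.68, edgeR adjusted p = 0.880), which was -1.58 and -0.71 without the same libraries. For both, the groups did not overlap after TMM scaling, as was true of 16.9% of all tested arms in the lower direction, and in both the difference was under 2 standard errors.

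For the other 4 tested members the groups overlapped after TMM scaling. miR-467a stood at 19.4 ± 2.33 TMM-scaled CPM in controls and 20.3 ± 1.45 with thapsigargin. Its log2 fold change was 0.061 (SE 0.51), and it was -0.26 when libraries were scaled by total arm reads alone. The log2 fold changes were -0.052 (SE 0.67) for miR-669c, -0.089 (SE 0.66) for miR-467c and -0.24 (SE 0.68) for miR-467d. Each of these was well within 1 standard error. The standard errors also bound what 2 libraries per group can show: at this depth a 2-fold change of any of these members would be under 2 standard errors.

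**Figure D4:**
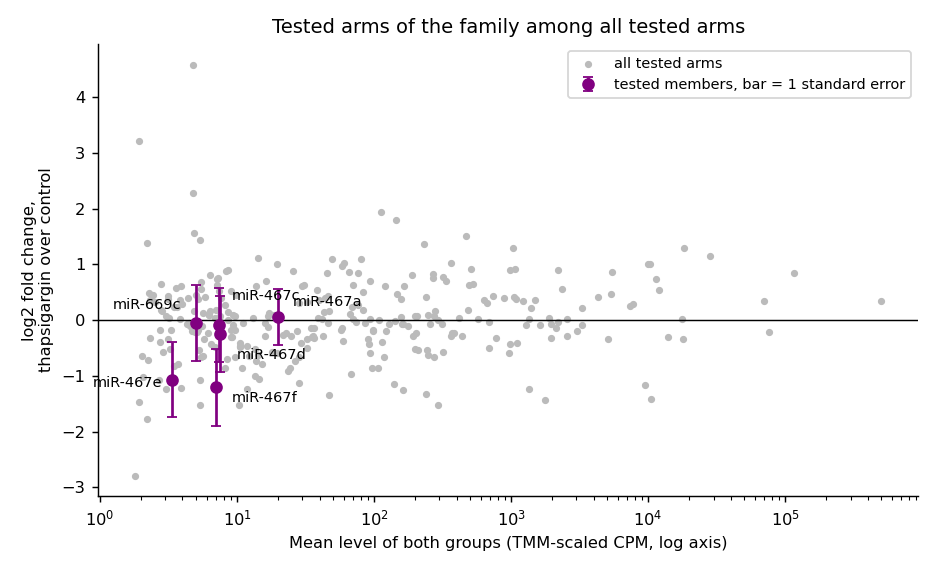
The log2 fold change of thapsigargin over control is plotted against mean TMM-scaled CPM on a log axis for 307 tested arms, with the 6 tested members marked and bars of 1 standard error. miR-467f and miR-467e lie lowest of the 6, at -1.21 and -1.07, and the other 4 lie between -0.24 and 0.061.

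With the shared reads added as features of their own, 330 features were tested and edgeR called 0 (0%). Reads of miR-669a-3p or miR-669o-3p had a log2 fold change of -1.68 (SE 0.79, edgeR adjusted p = 0.838) and groups that did not overlap, as did 17.6% of all features in the lower direction. It was -2.95 without thapsigargin replicate 1, -1.14 without control replicate 2 and -1.20 without thapsigargin replicate 2. Reads of the miR-466a-3p type were at -0.87 (SE 0.72), with overlapping groups, and at 0.021 without control replicate 2. Reads of miR-669a-5p or miR-669p were at 0.45 (SE 0.83), with overlapping groups, and at -0.91 without thapsigargin replicate 2.

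Counting exact matches to the hairpins in place of names gave 9 tested arms of the cluster among 310 features, and edgeR again called 0 (0%). These cluster arms included shared reads and hairpin table reads, while the other features held only mature and star reads of 1 name. The share over all features given next is thus not a like-for-like background. In 4 of the 9 the thapsigargin libraries lay below the controls without overlap, beside 15.5% of all features. These 4 were all 3 tested 3p arms and miR-467e. The miR-669a-type 3p arm was at -1.59 (SE 0.75, edgeR adjusted p = 0.890), the miR-466a-type 3p arm at -1.06 (SE 0.69) and the miR-467 3p arms at -0.87 (SE 0.68). The 5p arm of miR-467e was at -0.85 (SE 0.66). These sizes moved with single libraries. Without control replicate 2, the values were -1.10 for the miR-669a type, -0.32 for the miR-466a type, -0.44 for the miR-467 3p arms and -0.57 for miR-467e. Leaving out thapsigargin replicate 1 gave -2.84, -0.87, -1.59 and -1.31 in that order. The other 5p arms overlapped between groups, with log2 fold changes of 0.54 for miR-669a and miR-669p (SE 0.82), 0.034 for miR-467a and miR-467b (SE 0.50), -0.16 for miR-669c (SE 0.65), -0.30 for miR-467c (SE 0.64) and -0.37 for miR-467d (SE 0.61).

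The balance of the arms was therefore compared as the 3p share of reads on the cluster hairpins, where library scaling plays no part. For miR-669a and miR-669p the arms are not from exactly the same hairpins. Of the 84 reads of the 3p arm, 82 also fit the miR-669o hairpin, whose own 19 reads of the 5p arm were left out. Of reads on the miR-669a and miR-669p copies, the 3p arm had 29 of 71 in control replicate 1 (40.8%, Wilson 95% interval 30.2% to 52.5%), 32 of 94 in control replicate 2 (34.0%, 25.3% to 44.1%) and 21 of 66 in thapsigargin replicate 1 (31.8%, 21.8% to 43.8%). In thapsigargin replicate 2 it had 2 of 63 (3.17%, 0.875% to 10.9%). That library stood apart from the other 3, whose intervals overlapped, so the 2 thapsigargin libraries differed more from each other than thapsigargin replicate 1 did from the controls.

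In the other families the 3p share was also lowest in that library, but its interval overlapped those of all 3 other libraries for miR-467 and for miR-466. For miR-467 hairpins the 3p share was 13.6% and 17.7% in controls and 13.1% and 6.76% with thapsigargin, the last with a Wilson 95% interval of 2.92% to 14.9%. For miR-466 hairpins, where 3p reads were the majority, it was 78.3% and 77.0% against 80.0% and 58.3%, the last with an interval of 38.8% to 75.5%. Over all cluster hairpins it was 25.6% and 33.2% against 23.5% and 11.4%, the last with an interval of 7.59% to 16.8%. For all miR-669 hairpins it was 26.2% and 27.4% against 21.7% and 2.35%, the last with an interval of 0.648% to 8.18%. In these sets, which include the miR-669a and miR-669p copies, the interval of thapsigargin replicate 2 overlapped none of the others. Outside the family, the share of arm reads with more A and C than G and T was 12.4% and 56.6% in controls. It was 43.7% and 48.0% with thapsigargin. The lowest library was control replicate 1, whose reads begin 1 base earlier. How far that start moves reads across this cut was not tested. Without miR-10b, the most abundant arm, the share was 15.2% and 23.9% against 18.6% and 12.8%, lowest in thapsigargin replicate 2. For family reads the A and C rich share was 31.5% and 37.3% against 27.5% and 13.7%. The part of base composition in the arm result was not tested.

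**Figure D5:**
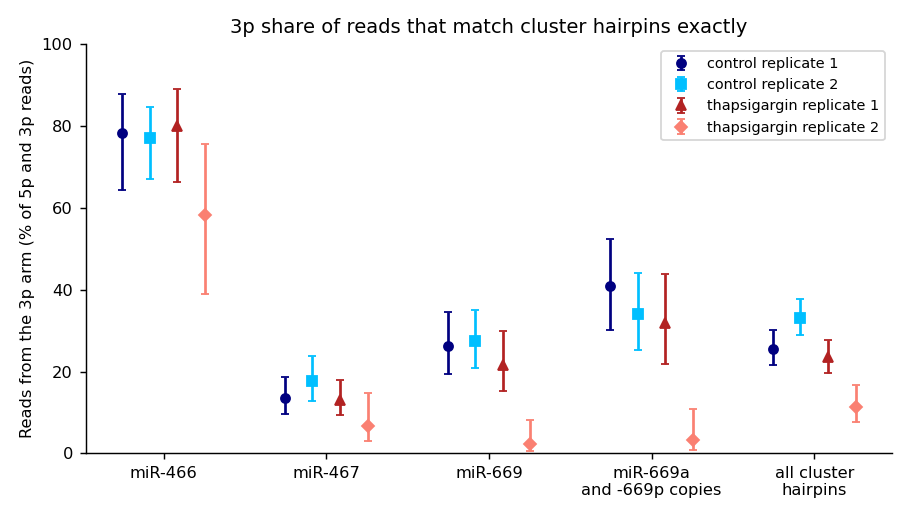
The 3p share of reads that match hairpins inside Sfmbt2 exactly, in percent of 5p and 3p reads, is plotted for 3 families, for the miR-669a and miR-669p copies and for all hairpins, with 1 point per library and Wilson 95% intervals that cover counting error only. Thapsigargin replicate 2 is lowest in every set, at 3.17% for the miR-669a and miR-669p copies, where the other 3 libraries lie between 31.8% and 40.8%. Most 3p reads of these copies also fit the miR-669o hairpin, whose 5p reads are not in that set.

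Names that the deposited tables call star arms did not carry this balance, since most 3p reads are listed there as mature. Star names made up 0.308% and 1.75% of family reads of 1 name in controls and 1.16% and 1.64% with thapsigargin, on 13 reads in all. The groups overlapped.

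In the authors' deposited table, 25 of the 324 listed miRNAs are members, 21 of them with a log2 fold change below 0, beside 55.2% of all listed miRNAs. None of the 25 had an adjusted p under 0.05 in the authors' deposited table, beside 0.617% of all listed miRNAs. The smallest in the authors' deposited table was that of miR-669f-3p, at an adjusted p of 0.314 and a log2 fold change of -3.06. For miR-467f the authors' deposited table gives a log2 fold change of -1.23 and for miR-467e -1.10.

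Imprinted miRNAs elsewhere in the genome were set beside the cluster. Of 4 tested arms of imprinted genes other than Sfmbt2 and the Dlk1-Dio3 region, edgeR called 0, with 2 below 0, and of 3 tested Dlk1-Dio3 arms it called 0, with 3 below 0. Their medians were -0.16 and -0.34, beside -0.17 for the cluster. miR-298, from the imprinted Gnas region, was far more abundant than any cluster member, at 810 ± 119 against 575 ± 182 TMM-scaled CPM (SD, n = 2), a log2 fold change of -0.49 (SE 0.47).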

How the data were processed

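Total RNA was made into small RNA libraries with a TruSeq kit, per the labels' protocols. The submitters' processing notes list CASAVA 1.8.1, cutadapt, Bowtie and DESeq 1.4.1, with a mouse build other than GRCm38, so no coordinates are given. The authors deposited whole-number counts of each distinct read with the names it fits, and, per the file headers, a comparison table of log2 fold changes with p-values. The deposited summary of thapsigargin replicate 2 was not used.

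Counts of mature and star reads were summed per name. Reads fitting 1 name were tested in all 4 libraries with edgeR 4.0.16 (R 4.3.3): quasi-likelihood test, two-sided, TMM, filterByExpr with a minimum count of 10, robust fitting, Benjamini-Hochberg at 0.05. CPM are relative to arm reads. Standard errors were derived from each fold change and its F statistic. limma 3.58.1 and DESeq2 1.42.0 were alternatives. The scripts were tested on simulated data. Wilson and exact intervals and floors cover counting error. An added step matched reads exactly to GENCODE M21 hairpins. Another 11 distinct reads with runs of G (28 reads) that list a member only after another name were left out.

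Named are all tested members, the 10 with the most reads of each kind, and any absent from 1 group with at least 5 reads in the other. Members and lists were chosen with earlier results of these data known. TMM factors were 1.40, 0.901, 1.11 and 0.716.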

Additional observations from a re-analysis of the deposited data

How the results depend on the processing

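No alternative run called a member. Over all arms edgeR called 3 with no filter on low counts and 0 to 1 with each library left out. Of tested members, 30 of 39 were below 0 with no filter, and 2 to 9 with each library left out, where 6 to 10 members were tested. The share of all arms below 0 was not counted in these runs, and with no filter some members had 1 read in all. The log2 ratio of the summed level was -0.47 under TMM scaling and -0.98 to -0.52 with each library left out. The star share difference ranged from -0.35 to 1.09 percentage points. Under total scaling the direction turned for miR-467a (-0.26) and, by exact match, for miR-467a and miR-467b (-0.31). With each library left out, ranges crossed 0 for miR-467a (-0.055 to 0.15), miR-467c (-0.50 to 0.41), miR-467d (-0.78 to 0.54), miR-669c (-0.60 to 0.41), and by exact match for miR-467a and miR-467b (-0.066 to 0.12), miR-669a and miR-669p 5p (-0.84 to 1.29) and miR-669c (-0.49 to 0.14). They also crossed 0 for shared reads of miR-466a-3p type (-1.46 to 0.021) and of miR-669a-5p or miR-669p (-0.91 to 1.14). The cause was not tested. No range crossed 0 for miR-467e, miR-467f or any 3p arm by exact match. By exact match it did not cross 0 for these 5p arms either: miR-467c (-0.59 to -0.065), miR-467d (-0.75 to -0.13) and miR-467e (-1.31 to -0.57). By name, the ranges of miR-467c and miR-467d did cross 0. The exact count of miR-467d adds hairpin table reads (20, 0, 8 and 0), most of them in control replicate 1. That of miR-467c adds reads named miR-467h. With a replicate block, 0 arms were called and 26 had an unadjusted p under 0.05; same-numbered libraries deviated together (r = 0.56 over 307 arms), but 2 pairs do not show a pairing. A lone library left in a group was assumed to vary like the other group. Depth limits every member: most had under 20 reads in all.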
